A study of Homo sapiens with 24 samples.

Results

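Fatty acid synthesis was followed through 10 genes in MDA686TU cells, a head and neck squamous cell carcinoma line: ACACA, ACACB, ACLY, ACSS2, FASN, SCD, ELOVL6, FADS1, FADS2 and ME1. They were chosen by symbol, with earlier results of these data known. All 10 of 10 were found among the 60617 genes of the count table and passed the filter on low counts, which left 15476 genes. RNA was sequenced from 4 groups of 6 libraries after 24 h. The untreated control (NT) received neither agent, the EGCG group received 40 µM of epigallocatechin gallate, a green tea polyphenol, the Resveratrol group received 15 µM of resveratrol, a polyphenol of grapes, and the Combination group received both at these doses. All groups were cultures of 1 cell line grown in DMEM/F12 with 10% serum, which itself supplies fatty acids. EGCG was dissolved in water, and the stock of resveratrol was in DMSO. Whether NT cells were given DMSO was not given in the sources used here, so resveratrol and its solvent cannot be told apart in these data.

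Cells build fatty acids from acetyl-CoA in the cytosol. ACLY makes acetyl-CoA by splitting citrate exported from mitochondria, and ACSS2 makes it from acetate. ACACA and ACACB carboxylate acetyl-CoA to malonyl-CoA, ACACB at the mitochondrial surface where malonyl-CoA restrains fatty acid import. FASN joins these units into palmitate with electrons from NADPH, part of which comes from the malic enzyme ME1. ELOVL6 lengthens palmitate to stearate, SCD turns saturated into monounsaturated fatty acids such as oleate, and FADS2 and FADS1 desaturate the essential polyunsaturated fatty acids. Many of these genes are known targets of the SREBP transcription factors, which also drive sterol synthesis, and lipogenesis is often raised in carcinomas.

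On the GRCh38 assembly, ACSS2 (ENSG00000131069) spans chr20:34872146-34927962. FADS1 (ENSG00000149485, chr11:61799627-61829318) lies wholly within the span of FADS2 (ENSG00000134824, chr11:61792980-61867354), on the other strand. SCD (ENSG00000099194) lies at chr10:100347233-100364826, ELOVL6 (ENSG00000170522) at chr4:110045846-110199199, ME1 (ENSG00000065833) at chr6:83210402-83431051 and ACACB (ENSG00000076555) at chr12:109116587-109268226. Chromosome 17 holds ACACA (ENSG00000278540, chr17:37084992-37406836), ACLY (ENSG00000131473, chr17:41866917-41930542) and FASN (ENSG00000169710, chr17:82078338-82098294).

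RefSeq start windows on GRCh38.p14, from 250 bases before to 50 after a start site, were found for 9 members (not FASN), 15 windows in all. The windows below show ACSS2 and ACLY, which make acetyl-CoA, the desaturases SCD and FADS2, and ME1 as the member with an antioxidant response element, and run 5′ to 3′ on the strand of the gene. Capitals mark CCAAT in either direction (the core letters read by NF-Y, a common partner of SREBP) and TGACNNNGC in either direction (antioxidant response element).
ACSS2, chr20:34874739-34875038, plus strand: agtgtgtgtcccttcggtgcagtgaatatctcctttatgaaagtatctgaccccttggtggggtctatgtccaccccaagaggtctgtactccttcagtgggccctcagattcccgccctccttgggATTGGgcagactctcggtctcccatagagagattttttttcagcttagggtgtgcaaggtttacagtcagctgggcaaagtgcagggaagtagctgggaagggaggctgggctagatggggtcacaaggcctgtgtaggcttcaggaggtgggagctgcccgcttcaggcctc
SCD, chr10:100346983-100347282, plus strand: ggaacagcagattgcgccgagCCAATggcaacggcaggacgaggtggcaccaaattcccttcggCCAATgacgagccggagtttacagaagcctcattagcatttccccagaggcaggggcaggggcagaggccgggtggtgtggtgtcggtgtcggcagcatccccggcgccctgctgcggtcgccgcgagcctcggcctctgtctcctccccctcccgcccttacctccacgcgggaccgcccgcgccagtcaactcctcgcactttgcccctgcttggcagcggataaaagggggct
FADS2, chr11:61816154-61816453, plus strand: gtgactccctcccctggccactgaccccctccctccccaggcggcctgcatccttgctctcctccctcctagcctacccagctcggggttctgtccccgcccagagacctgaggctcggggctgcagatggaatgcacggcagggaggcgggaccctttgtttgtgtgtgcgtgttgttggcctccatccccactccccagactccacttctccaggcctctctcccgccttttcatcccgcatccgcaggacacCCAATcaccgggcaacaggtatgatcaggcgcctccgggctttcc
ACLY, chr17:41918973-41919272, minus strand: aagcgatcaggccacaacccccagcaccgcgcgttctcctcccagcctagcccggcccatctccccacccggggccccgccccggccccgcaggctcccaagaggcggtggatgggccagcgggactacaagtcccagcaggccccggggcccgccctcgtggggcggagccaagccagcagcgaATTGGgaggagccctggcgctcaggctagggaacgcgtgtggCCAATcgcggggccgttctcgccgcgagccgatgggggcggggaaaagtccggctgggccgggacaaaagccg
ME1, chr6:83431002-83431301, minus strand: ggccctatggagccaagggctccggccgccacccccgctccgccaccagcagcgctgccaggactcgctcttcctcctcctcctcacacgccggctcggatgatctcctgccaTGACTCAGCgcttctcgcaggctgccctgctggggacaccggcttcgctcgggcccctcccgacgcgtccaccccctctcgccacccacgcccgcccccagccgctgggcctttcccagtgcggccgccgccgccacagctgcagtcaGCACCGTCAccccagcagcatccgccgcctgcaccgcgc

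In the windows printed here, with the start base counted as 1, CCAAT matches began at -229 and -186 for SCD, at -123 for ACSS2, at -65 and -23 for ACLY and at 6 for FADS2. The other windows of ACSS2 (chr20:34876362-34876661) and FADS2 (chr11:61815953-61816252), not printed, had no such match. In all, CCAAT was found in 8 of 15 windows (53.3%), belonging to 6 members, and in 34.6% of all 35116 RefSeq windows of this length. The 2 windows of ACLY overlap, so the same pair of matches counts in each. ME1 was the member with TGACNNNGC, at -137 and at 12, so 1 of 15 windows (6.67%) held it against 13.3% of all windows. The first of these, TGACTCAGC, contains TGACTCA, the letters of the AP-1 motif. The Sp1 letters GGGCGG, left in lower case above, stood in 12 of 15 windows (80%) against 45% of all. TCACNCCAC (sterol regulatory element), CACGTG (E-box) and TGATGNAA (amino acid response element) were in none of the members' windows and in 1.13%, 7.26% and 3.62% of all windows. Both strands were searched for each of these motifs. These are matches of letters and not measured binding sites.

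Library totals were 7034872 to 11735574 counts, and no pair of libraries held identical counts. The mitochondrial share of counts was 0.249% to 0.326% for replicates 1 to 3 of the groups, lower than the 0.448% to 0.775% for replicates 4 to 6, so values within each of these sets are given where they bear on a result. The sources used here give no batch, and do not say beyond the replicate numbers whether libraries came from separate cultures, so p-values measure the spread between these libraries. The 8 squamous markers were all detected, with a summed FPKM (fragments scaled by gene length and sequencing depth) of 6360 to 6710 in NT, 6070 to 6850 under EGCG, 5270 to 5550 under resveratrol and 5220 to 5700 under the combination. Summed FPKM was at most 0.0788 for leukocyte markers and 0.236 for endothelial markers, and at most 1.01 for 6 adipocyte and hepatocyte markers, of which ADIPOQ and LEP were at 0 in all 24 libraries. The sum of 4 fibroblast markers was 12.7 to 15.5 in NT, 10.2 to 12.7 under EGCG, 15.0 to 17.9 with resveratrol and 17.5 to 20.1 with the combination. Only 1 of these 4 passed the filter on low counts, and 3 had any count with resveratrol or with the combination. The part of these marker shifts in the results below was not tested. In bulk RNA, fewer cells of a type and less RNA per cell cannot be told apart.

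In untreated cells SCD, ACLY and FASN were among the more highly expressed genes. In FPKM, a level per length, SCD stood at 142 ± 3.50 (SD, n = 6), ACLY at 95.8 ± 1.84 and FASN at 69.0 ± 5.80, above 97.3%, 95.8% and 94.2% of tested genes. FADS1 followed at 17.5 ± 0.628, ACACA at 13.4 ± 0.602 and ME1 at 10.9 ± 0.236, above 78.2%, 72.9% and 68.6% of tested genes. ACSS2 at 7.29 ± 0.551, ELOVL6 at 4.46 ± 0.198 and FADS2 at 3.31 ± 0.196 were nearer the middle, above 59.3%, 47.4% and 40.4%. ACACB was lowest of the members at 0.369 ± 0.0612, above 6.68% of tested genes. No neighbors in this order overlapped between libraries in NT or with EGCG. In the Resveratrol and Combination groups ACSS2 stood above ACACA, at 19.4 ± 0.438 and 23.6 ± 1.16, and FADS2 stood above ELOVL6, while the ranges of ACACA and ME1 overlapped. The summed FPKM of the 10 members was 364 ± 10.3 in NT, 362 ± 16.6 under EGCG, 494 ± 16.9 with resveratrol and 495 ± 18.5 with the combination.

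**Figure D1:**
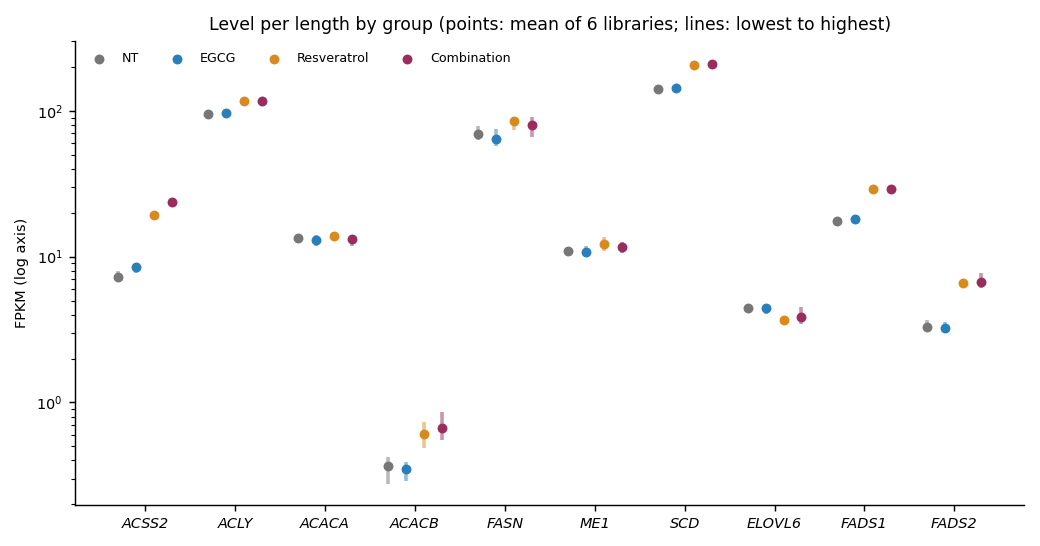
FPKM of each member (log axis) in 4 groups, with points for the mean of 6 libraries and lines from the lowest to the highest library. SCD, ACLY and FASN lie highest and ACACB lowest in every group, and ACSS2 rises from 7.29 in NT to 23.6 with the combination.

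The group given resveratrol without EGCG was compared with NT, a comparison in which the agent and its solvent cannot be told apart. Of the 10 members, 8 were upregulated, 1 was downregulated and 1 did not pass the test, where 56.9% of all tested genes passed (28.9% up and 28.0% down). A gene was called when edgeR's quasi-likelihood test gave a Benjamini-Hochberg adjusted p below 0.1 over all tested genes and an unadjusted p below 0.05. With the combination 7 members were upregulated and 1 was downregulated, where 59.8% of tested genes passed (29.9% in each direction). These comparisons share the NT libraries. The median log2 fold change over the members was 0.42 in each of them, against 0.00 over all tested genes. Libraries of the groups did not overlap for 7 members with resveratrol and for 6 with the combination, where 31.1% and 31.9% of tested genes did not overlap.

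**Figure D2:**
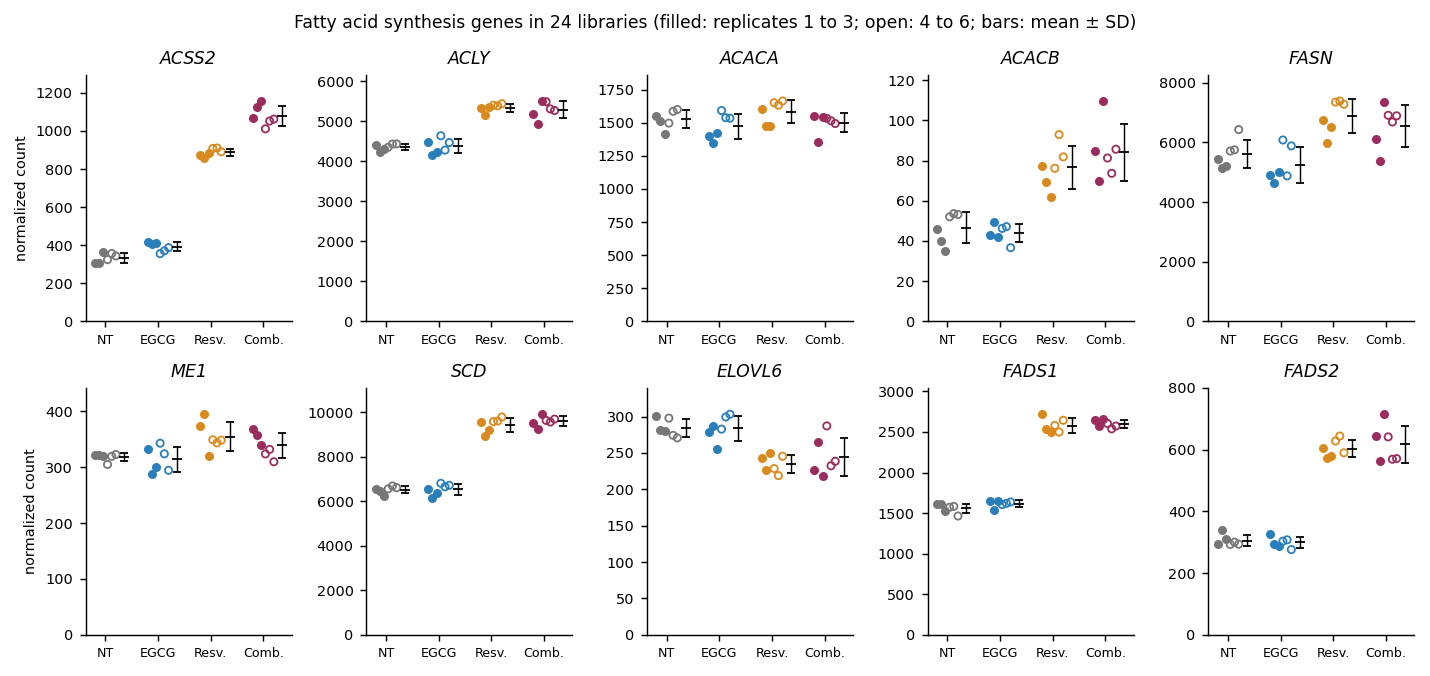
Authors' normalized counts (raw counts divided by a size factor) of the 10 members in each of 24 libraries, with filled points for replicates 1 to 3, open points for replicates 4 to 6 and bars for the mean ± SD of 6 libraries. For ACSS2 the 6 combination libraries (1011 to 1157) lie above the 6 resveratrol libraries (858 to 910), and these above all NT libraries (307 to 365).

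ACSS2, the enzyme that turns acetate into acetyl-CoA, had the steepest rise among the members. Its normalized count in NT was 307 at the lowest, 334 at the median and 365 at the highest. With EGCG it was 356, 396 and 416, under resveratrol 858, 886 and 910, and under the combination 1011, 1065 and 1157. The resveratrol and combination libraries thus lay above all NT and EGCG libraries, while the EGCG and NT ranges overlapped. The log2 fold change against NT was 1.41 (SE 0.0455, adjusted p = 3.1e-24 in edgeR) with resveratrol, a fold of 2.66, and 1.69 (SE 0.0452, adjusted p = 6.1e-27 in edgeR) with the combination, a fold of 3.24. By log2 fold change ACSS2 took place 72 of 15476 tested genes with resveratrol and place 48 with the combination. Two-sided exact permutation of log2 CPM gave p = 0.00216 for each, the smallest it can give for 6 against 6. The study that reported these data already lists ACSS2 among the most upregulated genes of the combination, so its rise there is not an independent finding. The neighboring GGT7 overlaps ACSS2 by 711 bp on the other strand, with no exon bases shared, and its mean normalized count was 63.8 in NT, 120 under resveratrol and 128 under the combination.

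ACLY, which supplies acetyl-CoA from citrate, rose less. Its lowest, median and highest normalized counts were 4217, 4369 and 4431 in NT, 4163, 4371 and 4634 under EGCG, 5147, 5361 and 5433 under resveratrol and 4929, 5285 and 5502 under the combination. The groups with and without resveratrol did not overlap. The log2 fold change was 0.30 (SE 0.0292, adjusted p = 8.2e-11 in edgeR) with resveratrol and 0.28 (SE 0.0293, adjusted p = 2.7e-10 in edgeR) with the combination. The ratio of ACSS2 to ACLY in FPKM, taken within each library, was 0.0762 ± 0.00548 in NT, 0.0889 ± 0.00774 under EGCG, 0.165 ± 0.00213 with resveratrol and 0.203 ± 0.0144 with the combination (SD, n = 6). Exact permutation of the log2 ratio gave p = 0.00216 (0.00371 adjusted over 12 comparisons of ratios) for resveratrol and for the combination against NT, with no overlap between groups. This ratio was picked after the members' values were seen, which the adjustment does not cover, so these p-values are descriptive. In these libraries the transcript of the acetate route rose more than that of the citrate route, although ACLY remained at the higher level.

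ACACA, the main acetyl-CoA carboxylase transcript here, passed the test in neither of these comparisons. The mean normalized count was 1527 ± 68.4 in NT, 1472 ± 95.7 under EGCG, 1584 ± 85.5 with resveratrol and 1498 ± 71.7 with the combination (SD, n = 6). The log2 difference from NT was 0.06 with resveratrol (95% interval -0.03 to 0.14) and -0.02 with the combination (-0.11 to 0.06). Scaled by library size alone, which shifts the median of all genes by 0.09, the first of these was 0.14 and passed the test. ACACB, its low-expressed mitochondrial counterpart, rose from 35.1 at the lowest, 49.1 at the median and 53.6 at the highest in NT to 62.0, 76.8 and 92.9 under resveratrol and 69.6, 82.9 and 110 under the combination. No treated library of these groups overlapped NT for ACACB. The log2 fold change was 0.71 (SE 0.120, adjusted p = 5.4e-06 in edgeR) and 0.87 (SE 0.120, adjusted p = 1.1e-07 in edgeR). ACACB overlaps UNG by 10139 bp on the same strand, without shared exon bases, and UNG, with a mean count of 1350 per library against 63.67 for ACACB, fell by 0.15 and 0.19 on the log2 scale.

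FASN, the fatty acid synthase itself, rose with more spread. The lowest, median and highest normalized counts were 5149, 5577 and 6429 in NT, 4655, 4973 and 6081 under EGCG, 5990, 7023 and 7388 under resveratrol and 5367, 6788 and 7346 under the combination. The NT range overlapped each treated range. In replicates 1 to 3, NT was at 5149 to 5442, resveratrol at 5990 to 6767 and the combination at 5367 to 7346. In replicates 4 to 6 these were 5711 to 6429, 7279 to 7388 and 6684 to 6909. Within each set the resveratrol libraries thus lay above NT, and the combination libraries did so in replicates 4 to 6. The log2 fold change was 0.30 (SE 0.0650, adjusted p = 2.2e-04 in edgeR) with resveratrol and 0.23 (SE 0.0651, adjusted p = 0.00343 in edgeR) with the combination, and 6 and 5 of the treated libraries lay above the NT mean. ME1, the cytosolic malic enzyme that yields NADPH, was at 319 ± 6.87 in NT, 314 ± 22.6 under EGCG, 355 ± 26.0 with resveratrol and 339 ± 21.9 with the combination. It rose by 0.16 (SE 0.0521, adjusted p = 0.00894 in edgeR) on the log2 scale with resveratrol, with overlapping groups, and in replicates 4 to 6 alone the difference was 0.14 and did not pass the test. With the combination the ME1 difference was 0.09 (95% interval -0.02 to 0.20, adjusted p = 0.151 in edgeR) and did not pass. It passed without EGCG replicate 2 (0.11) or without Combination replicate 6 (0.12), and under scaling by library size alone (0.17), a minimum of 10 counts (0.12) or a fit of these groups alone (0.11).

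The desaturases rose together. SCD, which makes oleate, had lowest, median and highest normalized counts of 6227, 6550 and 6691 in NT, 6148, 6604 and 6810 under EGCG, 8951, 9584 and 9789 under resveratrol and 9242, 9601 and 9913 under the combination. Its log2 fold change was 0.54 (SE 0.0275, adjusted p = 2.3e-18 in edgeR) and 0.56 (SE 0.0275, adjusted p = 4.6e-19 in edgeR). No SCD library with resveratrol overlapped one without it.

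FADS1 went from 1464, 1578 and 1609 (lowest, median, highest) in NT and 1537, 1629 and 1646 under EGCG to 2499, 2556 and 2718 under resveratrol and 2539, 2592 and 2658 under the combination. Its log2 fold change was 0.73 (SE 0.0295, adjusted p = 2.6e-21 in edgeR) and 0.74 (SE 0.0295, adjusted p = 1.1e-21 in edgeR). FADS2, which acts before FADS1 on polyunsaturated fatty acids, went from 293, 297 and 339 in NT and 276, 299 and 326 under EGCG to 572, 598 and 644 under resveratrol and 562, 606 and 714 under the combination. Its log2 fold change was 0.99 (SE 0.0547, adjusted p = 2.3e-17 in edgeR) and 1.02 (SE 0.0551, adjusted p = 6.2e-18 in edgeR). For both genes the groups with resveratrol lay wholly above those without. The ratio of FADS2 to FADS1 in FPKM was 0.189 ± 0.0107 in NT, 0.180 ± 0.0111 under EGCG, 0.227 ± 0.0135 under resveratrol and 0.230 ± 0.0189 under the combination. This rise against NT had p = 0.00216 by exact permutation (0.00371 adjusted over 12) for resveratrol and for the combination. These p-values too are descriptive, for a ratio picked after its values were seen. FADS1 and FADS2 share 490 exon bases on opposite strands, and FADS2 shares 49 exon bases with FEN1 on its own strand, so the origin of reads there is uncertain. FEN1 rose by 0.06 and 0.13 on the log2 scale.

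ELOVL6, the elongase that makes stearate, was the member that fell. Its lowest, median and highest normalized counts were 271, 281 and 301 in NT, 255, 285 and 303 under EGCG, 219, 236 and 250 under resveratrol and 218, 235 and 287 under the combination. All resveratrol libraries lay below NT, while the combination overlapped it through 1 library at 287. The log2 fold change was -0.27 (SE 0.0585, adjusted p = 2.2e-04 in edgeR) with resveratrol and -0.22 (SE 0.0591, adjusted p = 0.00214 in edgeR) with the combination. In replicates 4 to 6 alone the latter was -0.15 and did not pass. The ratio of SCD to ELOVL6 in FPKM was 32.0 ± 1.67 in NT, 32.1 ± 1.88 under EGCG, 56.0 ± 3.40 with resveratrol and 55.1 ± 6.26 with the combination, and by exact permutation the last pair each differed from NT with p = 0.00216 (0.00371 adjusted over 12). This ratio was also picked after its values were seen, so these p-values are descriptive.

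**Figure D3:**
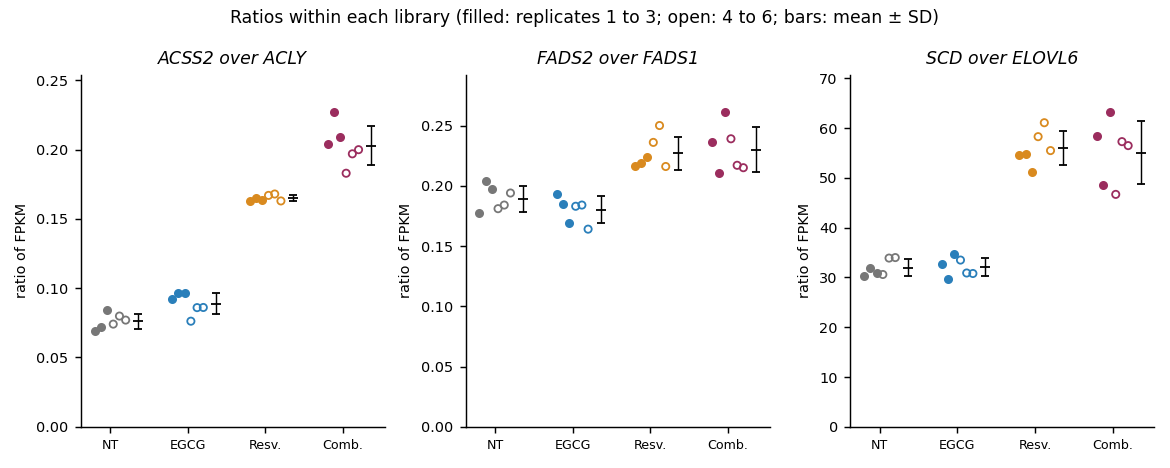
Ratios of FPKM within each library for ACSS2 over ACLY, FADS2 over FADS1 and SCD over ELOVL6, with filled points for replicates 1 to 3, open points for replicates 4 to 6 and bars for the mean ± SD of 6 libraries. In all 3 panels the resveratrol and combination libraries lie above every NT library, and for ACSS2 over ACLY the combination (0.183 to 0.227) also lies above resveratrol (0.163 to 0.168).

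EGCG alone was compared with NT in the same fit. ACSS2 was the 1 member of 10 that passed, where 1.76% of tested genes passed, and the groups overlapped for all 10, where they did not for 1.63% of tested genes. The ACSS2 log2 fold change was 0.23 (SE 0.0499, adjusted p = 0.00868 in edgeR, exact permutation p = 0.00649), with 6 of 6 EGCG libraries above the NT mean. Replicates 1 to 3 gave 0.33, while replicates 4 to 6 gave 0.12 and did not pass (adjusted p = 0.711 in edgeR). The other 9 log2 differences were between -0.10 and 0.05, and none of their 95% intervals, the widest being that of ACACB from -0.35 to 0.20, left out 0.

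The combination was compared with resveratrol to see what EGCG added. ACSS2 again was the 1 member of 10 that passed, a share near the 7.86% of all tested genes. Its log2 fold change was 0.28 (SE 0.0404, adjusted p = 1e-05 in edgeR). All 6 combination libraries of ACSS2 lay above all 6 resveratrol libraries, where groups did not overlap for 3.19% of tested genes, and the exact permutation p was 0.00216. Replicates 1 to 3 gave 0.36, replicates 4 to 6 gave 0.21, and each passed. The ratio of ACSS2 to ACLY was likewise higher with the combination (log2 difference 0.30, exact permutation p = 0.00216, 0.00371 adjusted over 12). As above, that ratio was picked after its values were seen, and its p-value is descriptive. For SCD the difference between the combination and resveratrol was 0.02 (95% interval -0.03 to 0.08), for FADS1 0.01 (-0.05 to 0.07), for FADS2 0.04 (-0.07 to 0.14) and for ACLY -0.02 (-0.08 to 0.04). For FASN it was -0.07 (-0.20 to 0.06), for ACACA -0.08 (-0.16 to 0.00), for ME1 -0.07 (-0.18 to 0.03), for ELOVL6 0.05 (-0.07 to 0.17) and for ACACB 0.16 (-0.06 to 0.38).

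**Figure D4:**
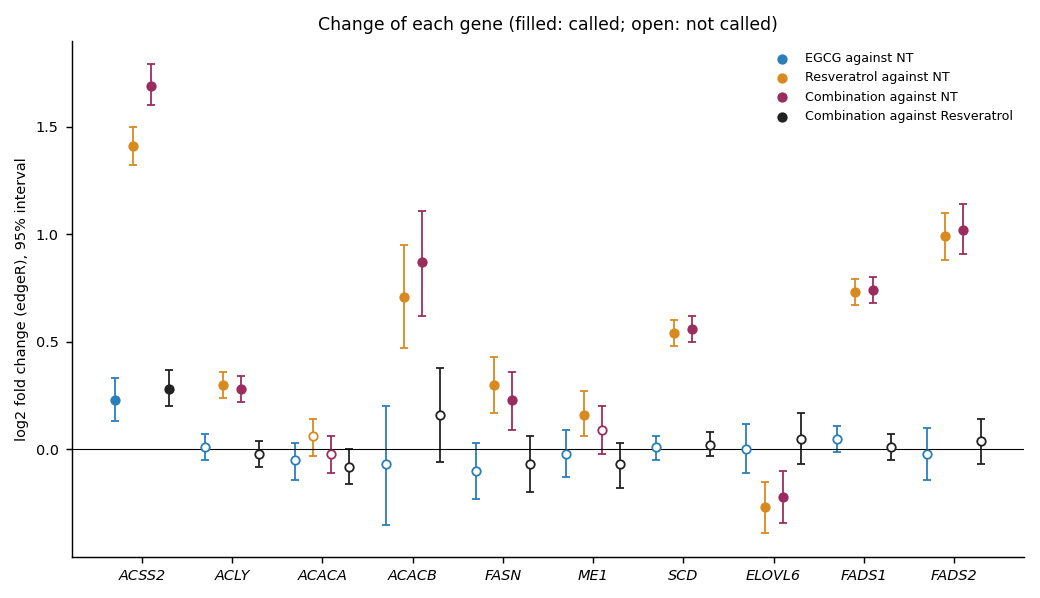
Log2 fold change of each member with its 95% interval in 4 comparisons, filled where the member passed the test and open where it did not. ACSS2 passes in all 4, at 0.23, 1.41, 1.69 and 0.28, while the other 9 members have open points for EGCG against NT and for the combination against resveratrol.

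The interaction term asks whether the combination departed from the sum of the log2 effects of the single agents. In edgeR it passed for 0 of 10 members, where 0.265% of tested genes passed. At an unadjusted p under 0.05 in edgeR it passed for 0 members and 7.72% of tested genes. In DESeq2 it passed for 0 members and 0.446% of tested genes. For ACSS2 it was 0.05 (95% interval -0.08 to 0.18, adjusted p = 0.913 in edgeR). Against EGCG, the combination had 8 members up and 1 down (57.8% of tested genes passed), and resveratrol had 9 up and 1 down (55% of tested genes). ACACA passed between resveratrol and EGCG and not between the combination and EGCG (log2 difference 0.03, 95% interval -0.06 to 0.11). For ME1 the combination exceeded EGCG by 0.11 (adjusted p = 0.0809 in edgeR), a call that was lost in DESeq2 (adjusted p = 0.117), at 0.00 in replicates 4 to 6 alone, and on leaving out any 1 of 9 libraries (NT 1, 2, 3 or 6, EGCG 2 or 3, Combination 1, 2 or 3), with 0.09 to 0.11.

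Neighboring steps were described by lists of genes. Over all tested genes, 28.9% rose and 28% fell with resveratrol, and 29.9% went each way with the combination. Among 17 tested of 19 regulators of lipogenesis, 7 rose and 5 fell with resveratrol, and also with the combination, with medians of 0.03 and 0.00 on the log2 scale. As shares these were 41.2% and 29.4% in each comparison. SREBF1, which encodes the SREBP isoforms known for lipogenesis, had a mean normalized count of 2450 in NT, 2554 under resveratrol and 2446 under the combination and did not pass (adjusted p = 0.177 and 0.988 in edgeR). SREBF2, the isoform known for sterol synthesis, rose from 1977 ± 62.4 to 2540 ± 85.9 and 2627 ± 96.6. INSIG1, a feedback inhibitor of SREBP processing and itself a target, rose from 345 ± 20.4 to 526 ± 28.8 and 504 ± 16.3, and the site-1 protease MBTPS1 from 1250 ± 27.2 to 1601 ± 41.4 and 1581 ± 22.8. INSIG2 rose by 0.32 and 0.50 on the log2 scale, the liver X receptor NR1H3 by 0.68 and 0.71 and its relative NR1H2 by 0.23 and 0.14. MLXIPL (ChREBP), a glucose-responsive activator, rose from a mean of 9.36 to 19.5 and 17.8, a low count. Its partner MLX fell by 0.18 and 0.26, RXRA by 0.14 and 0.28, MID1IP1 by 0.21 and 0.22, STK11 by 0.21 and 0.25 and PPARGC1B by 0.23 and 0.43.

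For carbon and NADPH supply, 13 of 14 genes were tested, of which 6 rose and 4 fell with resveratrol and 7 rose and 4 fell with the combination. The shares up were 46.2% and 53.8%, where 28.9% and 29.9% of all tested genes rose. The share down was 30.8% in each, near the 28% and 29.9% of all tested genes. PGD, an NADPH-producing enzyme, rose from 1585 ± 26.8 to 2321 ± 63.2 and 2441 ± 132. The cytosolic NADPH-producing IDH1 rose from 595 ± 24.0 to 989 ± 30.7 and 952 ± 54.6, and the citrate carrier SLC25A1, which feeds ACLY, from 540 ± 22.5 to 746 ± 31.0 and 785 ± 66.1. Among 15 tested partners of elongation and desaturation, 4 rose and 2 fell with resveratrol and 4 rose and 4 fell with the combination. The share of these partners that rose was 26.7% in each comparison, near that of all tested genes. The shares that fell were 13.3% and 26.7%, where 28% and 29.9% of all tested genes fell. SCD5 (0.42 and 0.46), ELOVL4 (0.57 and 0.56) and ELOVL7 (0.53 and 0.53) rose on the log2 scale, and ELOVL1 (-0.29 and -0.28) fell.

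Of 11 tested acyl-CoA synthetases and fatty acid carriers, 4 rose and 3 fell in each comparison. These were 36.4% up and 27.3% down. Of all tested genes, 28.9% rose and 28% fell with resveratrol, and 29.9% went each way with the combination. ACSL3 rose by 0.36 in each, ACSL1 by 0.79 and 0.67 and the acetoacetate-activating AACS by 0.37 and 0.35, while the binding protein FABP5 fell by 0.11 and 0.34. In glycerolipid assembly, 8 of 15 tested genes rose and 3 fell in each comparison (53.3% and 20%). The phosphatidate phosphatase LPIN1 rose by 0.54 and 0.62 on the log2 scale, AGPAT1 by 0.32 and 0.40 and AGPAT3 by 0.35 and 0.32, and AGPAT5 fell by 0.33 and 0.46. Of 9 genes of mitochondrial fatty acid and lipoate synthesis, 1 rose and 2 fell with resveratrol and 1 rose and 3 fell with the combination, with NDUFAB1 falling by 0.37 and 0.35, LIAS falling by 0.24 and 0.28 and ACSF3 rising by 0.28 and 0.21. The shares down, 22.2% and 33.3%, were near those of all tested genes. LIPT2 fell by 0.29 with the combination and was at -0.15, not passing, with resveratrol.

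Of the carnitine shuttle and malonyl-CoA decarboxylase, 4 of 5 tested genes rose in each comparison and none fell. Of all tested genes, 28.9% rose and 28% fell with resveratrol, and 29.9% went each way with the combination. CPT2 rose from 227 ± 11.6 to 331 ± 14.8 and 324 ± 11.7, MLYCD, which removes malonyl-CoA, from 66.9 ± 5.84 to 103 ± 8.50 and 104 ± 11.3, CPT1C by 0.79 and 0.82 and CPT1A by 0.13 and 0.06 on the log2 scale. Sterol synthesis and uptake, the other branch under SREBP, had 19 of 22 genes up with resveratrol and 21 of 22 with the combination and none down, with medians of 0.47 and 0.51. The shares up were 86.4% and 95.5%. HMGCS1 rose from 1824 ± 29.4 to 2546 ± 59.5 and 2881 ± 110, and MVD from 440 ± 21.3 to 768 ± 18.0 and 846 ± 67.9. Between the combination and resveratrol, 4 of the 22 sterol genes passed, all up, HMGCS1 (0.18) and MVD (0.14) among them, where 4.01% of all tested genes rose. Of 8 NRF2 targets, 8 rose with resveratrol and 7 with the combination. GCLC rose by 1.42 and 1.54 on the log2 scale, OSGIN1 by 1.41 and 1.51, TXNRD1 by 0.73 and 0.44 and NQO1 by 0.45 and 0.44.

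**Figure D5:**
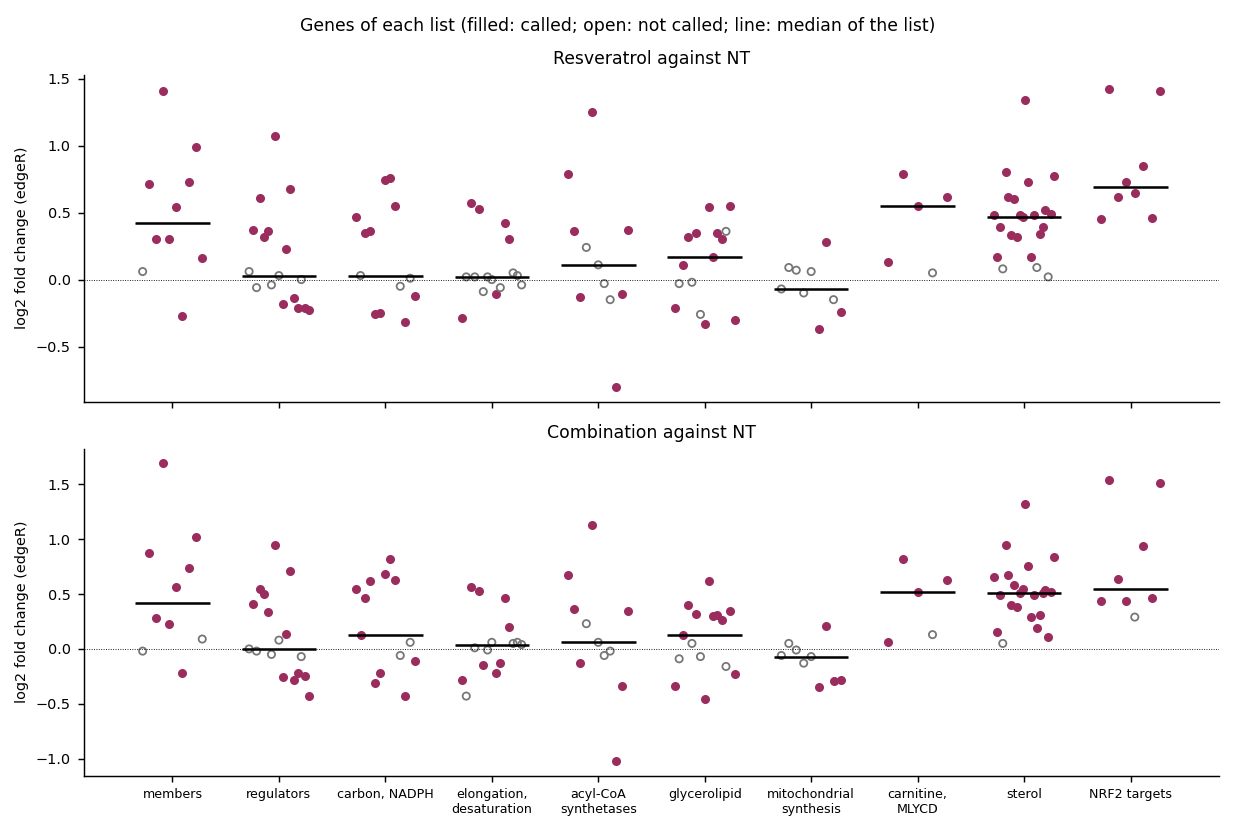
Log2 fold change of each tested gene by list, against NT, for resveratrol (upper panel) and the combination (lower panel), filled where the gene passed the test, with a line at the median of the list. The medians of the members are 0.42 in each panel, those of the sterol list 0.47 and 0.51, and those of the regulators 0.03 and 0.00.

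The genes most like each member were found by Pearson's correlation of log2 CPM over the 24 libraries, a description in which the groups supply most of the variation. For ACSS2 they were CHAC1 (0.994), ABHD4 (0.993), WARS1 (0.992), PCK2 (0.992) and GSS (0.992), with correlations of 0.486, 0.426, 0.497, 0.425 and 0.55 once each group's mean was removed. SCD was most like CTSB, GCLC and FADS1 (each 0.989), FADS1 like GCLC (0.991), CTSB (0.99) and AKR1C2 (0.989), and FADS2 like CTSB (0.989) and AKR1C2 (0.985). Without group means these were 0.396, 0.379 and 0.4 for SCD, -0.0946, 0.281 and 0.194 for FADS1 and 0.58 and 0.402 for FADS2. ACLY was most like LAMB2 (0.98), SCD and ABCC3 (each 0.978), and ACACB like ATG2A (0.951), COPG1 (0.939) and ZNF750 (0.937). ME1 was most like SRXN1 (0.838), SEPTIN6 (0.766) and GOLM2 (0.765), and ELOVL6 like NEDD4 (0.862), TRABD2A (0.85) and RPL5P29 (0.847). For FASN the nearest were EPPK1 (0.936), AHNAK2 (0.93) and CELSR2 (0.917), and for ACACA TPR (0.876), VPS13D (0.843) and YLPM1 (0.839). Without group means the genes named for FASN were at 0.885 to 0.904, those for ACACA at 0.851 to 0.876, those for ACLY at 0.697 to 0.789, those for ACACB at 0.619 to 0.705, those for ME1 at 0.568 to 0.749 and those for ELOVL6 at 0.498 to 0.619.

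Pairs of members were also compared within groups. Over the 45 pairs of members, the correlation of deviations from group means had a median of 0.116 and ran from -0.434 (ACSS2 and ELOVL6) to 0.899 (ACACA and SCD). ACLY and FASN were at 0.871, FASN and SCD at 0.828, ACACA and FASN at 0.803 and ACLY and SCD at 0.789. ACSS2 was at -0.0486 with FASN, -0.0847 with ACLY and -0.164 with SCD, although its correlation with SCD over all 24 libraries was 0.970. The points of these correlations share library, depth and replicate set, and no test was made on them.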

How the data were processed

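RNA-Seq of 24 libraries was analysed. Per the labels and methods, stranded mRNA libraries were aligned to GRCh38, and the submitters' processing notes name bcl2fastq 2.17.1.14, Trimmomatic 0.36, FastQC 0.11.5, HISAT2 2.0.4, SAMtools 1.3.1 and DESeq2 1.20.0. The counting program, annotation release and strand setting are not given in the sources used here. The authors deposited raw counts per gene without pooling. Their normalized counts, deposited by the authors as a signal per gene, equal raw counts divided by DESeq2 size factors, and their FPKM values equal these divided by a constant per gene. Both were checked in all 24 libraries. Means ± SD are of the authors' normalized counts or FPKM. These gave no fold change of a single gene used in a test, while the tested ratios between members were of FPKM.

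One edgeR 4.0.16 model (R 4.3.3, TMM, filterByExpr, quasi-likelihood test) took the raw counts of the 24 libraries, with limits on p as in the methods. A two-sided exact permutation test of mean log2 CPM was added for single values (prior count 2), with 924 permutations of 6 libraries against 6. Both this model and DESeq2 1.42.0 were first tested on simulated data in which 200 of 14806 genes changed in the combination. There edgeR recovered 176 with 23 false calls, and DESeq2 171 with 16. In the real data 59.8% of tested genes passed in that comparison, a share the simulation did not cover. The simulation also gave every gene the same dispersion and held no difference between replicate sets. Gene positions came from GENCODE on GRCh38 and promoters from RefSeq. Depth limits precision mainly for ACACB, and counting error is part of each SD.

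The members and the lists were chosen with earlier results of these data known, and the ratios between members after their values were seen. The text names all 10 members, any regulator, up to 4 genes of each other list with the smallest p in the combination against NT, the genes most like a member (5 for ACSS2, 3 for the others) and overlapping genes. The results of some genes under this rule are not reported here. Alternatives were DESeq2, its size factors, library size alone, every gene with at least 1 count, at least 10 counts in every library, only the groups compared, the replicate number as a block, the division of replicates as a term or each set alone, each library left out, an adjusted p under 0.05 and the unadjusted p. Proteins and RT-qPCR were not analysed here.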

Additional observations from a re-analysis of the deposited data

Results flagged for a closer look

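Of 40 groups of 6 libraries examined (10 members in 4 groups), 3 held a library whose normalized count stood apart from the rest by Dixon's test, which chance does in about 1 of 20. For ACACA, Combination replicate 2 was lowest at 1357, with the nearest library at 1494. For FADS2, NT replicate 2 was highest at 339, with the nearest at 309. For ME1, NT replicate 4 was lowest at 305, with the nearest at 320. Leaving out each of these libraries changed no call of its own gene against NT.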

How the results depend on the processing

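Of 2510 alternative values of single members, 2485 kept their side of the threshold, 18 fell below it and 7 passed it. Differences that did not pass could change sign. For ACACB with EGCG against NT the log2 difference was -0.07, and 0.15 in replicates 1 to 3 alone. Leaving out a library accounted for 1680 of the 2510 values and for 11 of the changed calls, all for ME1. Leave-one-out values of the ACSS2 log2 fold change were 1.67 to 1.73 for the combination and 1.39 to 1.45 for resveratrol against NT, and 0.26 to 0.30 between them. The number of members called against NT was 1 with EGCG (0 in replicates 4 to 6 alone), 9 with resveratrol (8 to 10 over the alternatives) and 8 with the combination (7 to 9). Under library size alone ACACA passed with resveratrol (0.14) and between the combination and EGCG (0.10). This scaling moved the share of higher calls among all genes from 50.7% to 68.3% with resveratrol, from 50.0% to 64.6% with the combination, from 49.6% to 63.8% and from 50.4% to 67.9% for these against EGCG, and from 78.0% to 66.7% for the interaction. Same-numbered libraries of different groups correlated by -0.0111 to 0.131 (36 pairs, median 0.0488) after removal of group means. The median was -0.012 for libraries with different numbers, and 11 of 24 libraries correlated best with their own number. Some likeness among same-numbered libraries was thus present, and the main model did not include it. Libraries of the same number also share a replicate set, so these values cannot tell the number from the set. With the replicate number as a block the number of members called was 1, 9, 8 and 1 for EGCG, resveratrol and the combination against NT and the combination against resveratrol, the same as without it. The block raised the calls among all genes from 273 to 370 for EGCG against NT and from 1217 to 1520 for the combination against resveratrol. Over all genes, EGCG gave 273 calls, 84 and 85 in replicates 1 to 3 and 4 to 6 alone and 1570 at the unadjusted p. The combination against resveratrol gave 1217, 399 in replicates 4 to 6, 803 at an adjusted p under 0.05 and 2811 unadjusted. The interaction gave 41, 69 in DESeq2, 92 over every gene with a count, 85 with the block, 79 with the division of replicates as a term, 6 and 24 in the sets alone and 1195 unadjusted. The causes were not tested.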
